A study of Mus musculus with 617 samples.

Results

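Transcripts of 10 genes that build or mark cell junctions were followed through early mouse development and its culture models: Cdh1, Cdh2, Epcam, Cldn3, Cldn4, Cldn6, Cldn7, Esrp1, Ocln and Vim. They were chosen by symbol as genes of cell adhesion and tight junctions and found by their Ensembl IDs, and all 10 were present among the 43628 gene IDs of each of 4 expression tables. RNA was measured in 617 single cells by SMART-seq2 with Tn5 tagmentation and given as FPKM, fragments per kilobase of transcript scaled to library size, a scale on which genes can be compared per length. Cultured cells came from 1 female and 1 male embryonic stem (ES) cell line, both hybrids whose father was CAST/EiJ and whose mother was C57BL/6J. The states sampled from each line were ES cells in 2i (inhibitor medium) with LIF (60 from the female and 51 from the male line), ES cells in serum with LIF (68 and 52), epiblast stem cells made from it in Activin A and FGF2 (labelled Epi, 79 and 63), and cells grown as embryoid bodies and treated with retinoic acid and the smoothened agonist SAG (labelled motor neuron, 39 and 35). There were also 41 cells of a female Epi culture taken at 7 passages. The labels give no number of passages for the other female and the male Epi culture, so their order in time is unknown. From embryos came 23 cells of the E3.5 inner cell mass and 23 of the E4.5 epiblast, with the same parental strains and no labelled sex, and 20 female and 63 male cells of the E5.5 epiblast from C57BL/6J parents. The motor neuron protocol also yields interneurons, per the labels' protocols. The labels name no engineered allele in these groups. Since the E5.5 embryos came from another cross, stage and cross cannot be told apart in comparisons with E5.5.

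Epithelial cells hold together through adherens junctions, in which E-cadherin (Cdh1) binds its like on the neighbouring cell, and through tight junctions, in which claudins and occludin (Ocln) seal the space between cells. Epcam is a surface glycoprotein of epithelia, and Esrp1 is a splicing factor that maintains epithelial isoforms of many transcripts. When epithelial cells turn mesenchymal, as the epiblast does at gastrulation, or form neural tissue, N-cadherin (Cdh2) commonly replaces E-cadherin, and the intermediate filament protein vimentin (Vim) marks mesenchymal and many other non-epithelial cells. E-cadherin is needed for the compaction of the early embryo and is present on naive ES cells.

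Set against serum ES cells, Cdh2, Vim and Cldn6 were called higher and Cdh1, Epcam and Esrp1 lower in the motor neuron cultures. Over all genes, 32.8% were called in either direction. Of these members only Vim and Esrp1 were called under each of 21 alternatives. In the motor neuron cultures, the cell cluster with the highest sum of neuron markers held Cdh2 in 96.0% and Cdh1 in 12.0% of its cells. Cldn6 averaged 21.5 FPKM in that cluster, under its means in serum (49.8 female, 48.2 male). It averaged 272 FPKM in the cluster with the highest sum of endoderm markers. Between 2i and serum, Cdh1 differed little while Cldn6 was over 10 times higher in serum in both lines. The male Epi culture held Cdh2 in 93.7% of its cells, whereas the share was 22.8% in the female Epi culture of unlabelled passage. In the embryo, Cldn4 was high in the blastocyst and low at E5.5, and Cldn6 was low in the blastocyst and high at E5.5.

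Median numbers of genes detected in a cell, at 1 FPKM or above, ran from 8122 (E3.5) to 10839.5 (E5.5 female) over the 13 groups. Counts were not analysed here, so the read depth of a cell was unknown, and values near 1 FPKM are imprecise. The highest Pearson r for any pair of cells within a table was 0.938, so none was taken for a duplicate. Cells of different tables were not compared in this way. The labelled cell types were checked against marker lists. At least 4 of 5 general pluripotency markers averaged 1 FPKM or more in every embryo, ES and Epi group. All 10 neuron markers did so in both motor neuron cultures, as did 9 (female) and 8 (male) of 10 endoderm markers. These counts alone did not set the labelled types apart. In each E5.5 group 9 of 10 endoderm markers did so, and in male E5.5 and 7-passage Epi cells 8 of 10 neuron markers. All 5 general pluripotency markers did so in the female motor neuron culture too. Of 7 naive markers, 7 did so in the female Epi culture of unlabelled passage, 1 in the male and 1 in the 7-passage culture.

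The E-box CAGGTG is a motif bound by the Snail and Zeb repressors of epithelial genes. The sequences upstream of Epcam and Cldn4 are shown as the members that had a match upstream of the start and no annotated exon in those bases. RefSeq promoter windows (GRCm38.p6, 250 bases before to 50 after a start site) were searched for 7 of the 10 members, in 9 windows. The 250 bases before the start of Epcam lie at chr17:87635729-87635978 on the + strand and those of Cldn4 at chr5:134946935-134947184 on the - strand. Capitals mark CAGGTG, read on either strand, so that a match on the other strand reads CACCTG.
Epcam: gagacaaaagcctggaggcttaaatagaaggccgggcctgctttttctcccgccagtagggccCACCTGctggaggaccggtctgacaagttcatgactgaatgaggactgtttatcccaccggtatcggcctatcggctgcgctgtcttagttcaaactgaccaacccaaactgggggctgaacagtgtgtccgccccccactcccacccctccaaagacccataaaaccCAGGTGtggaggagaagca
Cldn4: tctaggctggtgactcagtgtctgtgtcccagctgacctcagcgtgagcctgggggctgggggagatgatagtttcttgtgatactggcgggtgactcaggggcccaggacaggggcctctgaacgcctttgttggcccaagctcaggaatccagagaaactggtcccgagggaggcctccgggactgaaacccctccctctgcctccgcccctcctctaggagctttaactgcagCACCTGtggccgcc
In Epcam, matches began 187 and 19 bases before the start. In Cldn4 one began 14 bases before the start, and another began 11 bases after it, outside the bases shown. CAGGTG occurred in 7 of the 9 windows, beside 20.2% of 32851 windows of this length. Both Ocln windows are among them and overlap. The match 7 bases after one Ocln start is the same site as that 213 bases before the other. Of the 7 members searched, 6 had it in at least 1 window, and Vim had none. No window was at hand for Cdh1 and Esrp1. Cdh2 was left out of the search, so the members outside the epithelial ones cannot be compared as a group. AACCNGTT, a motif of Grainyhead-like factors of epithelia, also searched on both strands, occurred in none of the 9 windows and in 2.09% of all windows. A match says only that these letters are present.

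Cdh1, the E-cadherin gene, lies on mouse chromosome 8 (GRCm38, 106603351 to 106670246, + strand). Its mean was 26.3 FPKM at E3.5 and 26.02 at E4.5. It was 63.5 ± 32.7 in female and 59.4 ± 28.99 in male E5.5 cells (SD over 20 and 63 cells). The 2i cultures had 27.3 (female) and 27.3 (male), and the serum cultures 24.2 and 29.6. The Epi cultures had 23.4 (female), 14.1 (male) and 55.9 (female, 7 passages), and the motor neuron cultures 13.8 and 4.94. The 4 ES cultures lay within 24.2 to 29.6 FPKM, and no order between 2i and serum could be read, since the female line was lower and the male line higher in serum. Cdh1 was at 1 FPKM or more in every cell of the embryo and ES groups. In male Epi cells it was so in 52.4% (exact Clopper-Pearson 95% interval 39.4 to 65.1), and the median cell had 1.41 FPKM against a mean of 14.1 ± 23.9 (SD over 63 cells), so the mean rested on the upper part of the culture. Intervals of shares cover counting error only.

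Cdh2, the N-cadherin gene, lies on chromosome 18 and was nearly absent from the blastocyst, with means of 0.0618 FPKM at E3.5 and 0.0347 at E4.5. None of 23 cells at either stage reached 1 FPKM, which allows a share of up to 14.8% by the exact interval. At E5.5 the mean was 2.03 (female) and 2.61 (male), with 55% and 60.3% of cells at 1 FPKM or more. In ES cells it was 1.15 and 0.56 in 2i and 0.376 and 0.277 in serum (female, then male). It was 1.43 in female Epi, 27.8 ± 16.2 (SD over 63 cells) in male Epi, 15.1 ± 18.5 (SD over 41 cells) in the 7-passage culture, and 9.35 (female) and 26.8 (male) in the motor neuron cultures. Within each state the spread between lines was wide in Epi and narrow in serum. Cdh2 overlaps the antisense gene Gm15485 with no shared exon base, and whether the counting used strand is not given in the sources used here.

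Epcam was present in every group, with its highest means at E5.5 (280 female and 331 FPKM male) and its lowest in male 2i cells (42.9) and the motor neuron cultures (46.5 female, 46.9 male). Between these lay male Epi (70.5), female 2i (74.6), E4.5 (130.6), E3.5 (140), female serum (160), 7-passage Epi (170), female Epi (198) and male serum (199). Both lines were higher in serum than in 2i.

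Ocln, the occludin gene, stayed between 1.47 FPKM (male Epi) and 12.5 (male motor neuron culture), with 10.3 to 10.5 at E4.5 and E5.5. Only 14.3% of male Epi cells reached 1 FPKM, against 63.3% of female Epi cells. Esrp1 was almost silent in 2i, at 0.269 (female) and 0.448 FPKM (male). It was 12.8 and 10.1 in serum, 10.7 and 8.91 in Epi, 9.44 in 7-passage Epi, 9.97 and 10.9 at E5.5, 5.05 at E3.5, 4.21 at E4.5, and 1.69 and 1.08 in the motor neuron cultures. By these means the 2i cultures were lowest and the motor neuron cultures next above them. The shares of cells at 1 FPKM or more overlapped between the 2 states, at 6.67% (female) and 21.6% (male) in 2i and 17.9% and 14.3% in the motor neuron cultures. Esrp1 shares exon bases with Gm26663 on the opposite strand, and Cldn3 shares 40 with Wbscr25.

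Vim averaged 2.15 FPKM at E3.5, 3.27 at E4.5, and 15.8 (female) and 15.6 (male) at E5.5. Cultured cells were higher throughout: 65.6 and 54.2 in 2i, 114.3 and 78.6 in serum, 94.4 and 186 in Epi (female, then male), 623 in 7-passage Epi, and 1527 and 620 in the motor neuron cultures. Even the lowest culture, male 2i, was above both E5.5 groups. The dot plot of means and shares sets the 10 genes side by side.

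**Figure D1:**
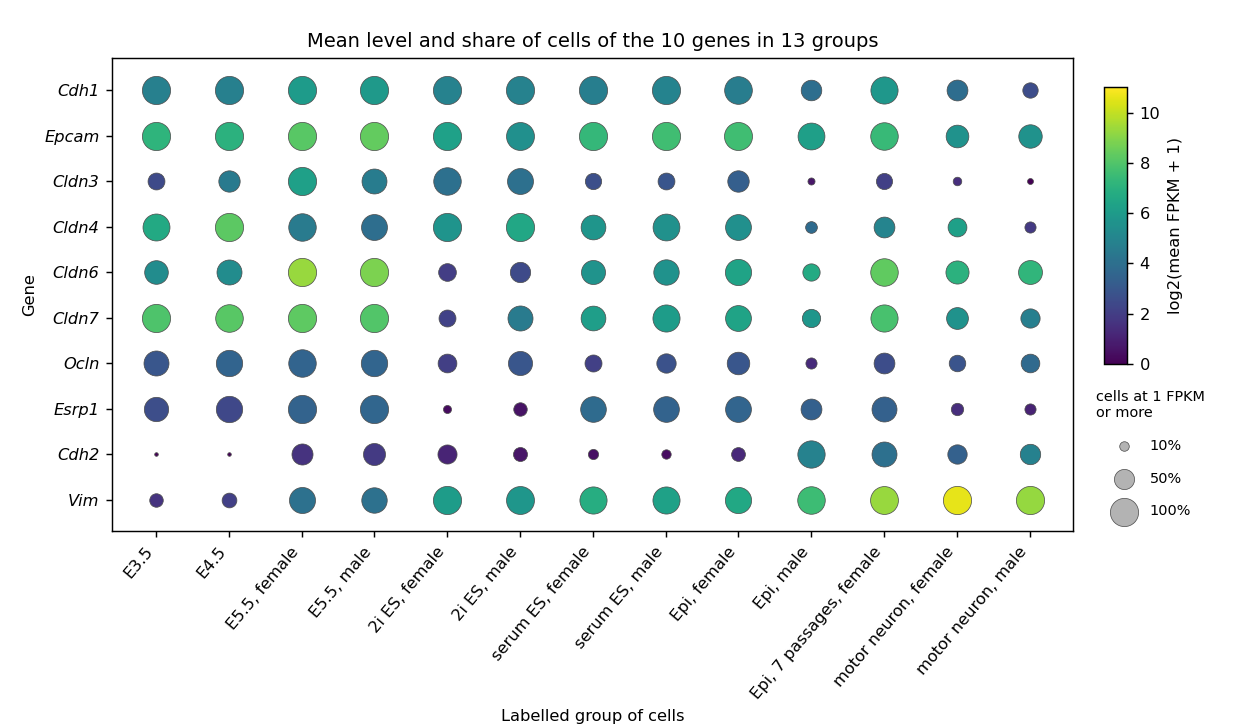
Mean level (colour, log2(mean FPKM + 1)) and share of cells at 1 FPKM or more (dot area grows with the share) of each gene (rows) in each labelled group of cells (columns). Cdh2 dots are large in male Epi (93.7% of cells) and small in serum (11.8% female, 9.62% male), and Vim is brightest in the female motor neuron culture (1527 FPKM).

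The claudins changed their order between blastocyst and E5.5. Cldn4 had 98.9 ± 108.5 FPKM at E3.5 and 298 ± 245.5 at E4.5, and 22.5 ± 29.8 (female) and 14.3 ± 15.0 (male) at E5.5, with the SD over cells. Cldn6 had 38.4 ± 54.2, 38.7 ± 34.1, 622 ± 176 and 452 ± 162 in the same order. Cldn7 had 240, 281.1, 308 and 257.7, and Cldn3 had 4.52, 21.7, 73.2 and 22.9. Every E5.5 cell held Cldn6 at 1 FPKM or more, with the lowest male cell at 38.5 and the lowest female cell at 251.6, and Cldn7 varied least with stage of the 4. Each stage was 1 sample, so these comparisons carry no test. The blastocyst and E5.5 cells were normalised in separate tables, so their ratios include any difference between the tables.

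Between E3.5 and E4.5, Cldn3 and Cldn4 were higher by at least 2-fold, with log2 ratios of (mean FPKM + 1) of 2.04 and 1.58, out of 10 members, Cdh2 being under the filter on low values. Of 11893 genes compared, 11.6% were higher and 13.4% lower by that much. Leading numbers in the cell titles, not explained as embryos, gave Cldn4 means of 23.5 to 556 over 7 numbers at E4.5 and 60.4 to 166 over 4 at E3.5. The ranges of both stages overlapped. The trophectoderm list (7 of 7 markers at 1 FPKM or more at both stages) summed to 427 FPKM at E3.5 and 1223 at E4.5. Over the E4.5 cells the Spearman rho of Cldn4 with the keratin gene Krt18 was 0.83, a description over 23 cells with no test. The part of those markers in the Cldn4 difference was not tested.

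Against E4.5, female E5.5 cells were at least 2-fold higher for 7 of 10 members (50.6% of 13290 genes) and lower for Cldn4 (11.3% of genes). Male E5.5 cells were higher for 6 (49.8% of 13405 genes) and again lower for Cldn4 (12.0% of genes). The median gene was itself 1.02 (female) and 0.99 (male) higher on the log2 scale, so Cdh1 (1.25 and 1.16), Epcam (1.10 and 1.34) and Esrp1 (1.07 and 1.19) moved about as the median gene did. Cldn6 was higher by well beyond it, 3.97 and 3.51, and Cldn4 was lower by a log2 ratio of -3.67 and -4.29. With each cell rescaled to the same FPKM sum the median was 0.25 in both sexes and Cdh1, Epcam, Esrp1 and the female Cldn3 value were no longer 2-fold higher, while Cldn6 (3.03 and 2.59), Cldn4 (-4.69 and -5.29), Vim (1.48 and 1.49) and Cdh2 (1.48 and 1.75) were still past 2-fold, and Cldn7 was lower in male cells (-1.15).

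Female E5.5 cells had a Cldn3 mean of 73.2 FPKM with a median of 28.3, and male cells 22.9 with a median of 7.45. The endoderm list, 9 of 10 markers at 1 FPKM or more in each, summed to 2711 FPKM in female and 772 in male E5.5 cells, and its part in the Cldn3 values was not tested.

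**Figure D2:**
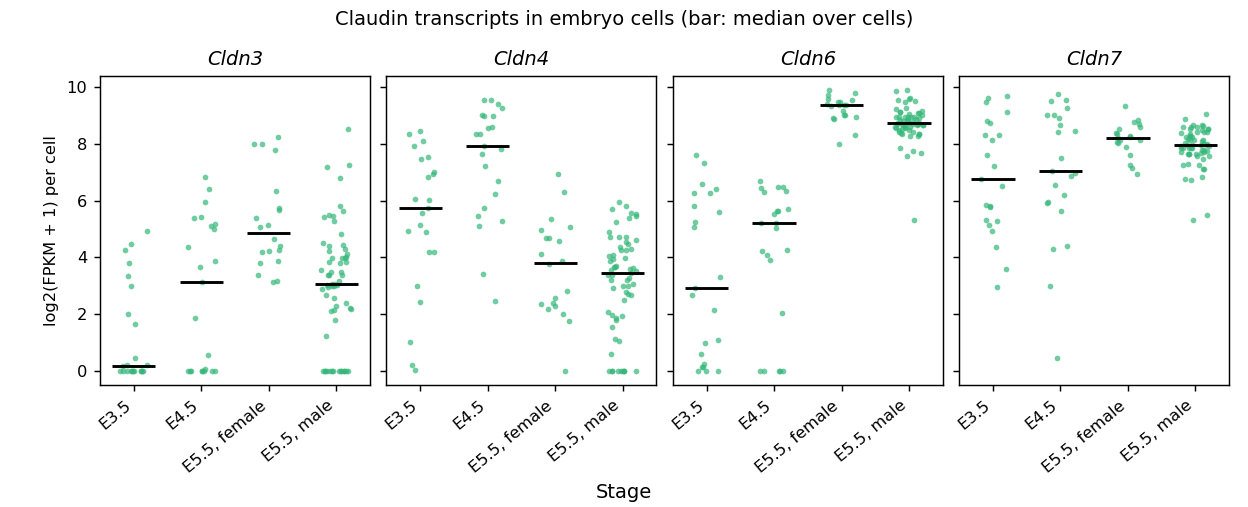
Claudin transcripts per cell, log2(FPKM + 1), at E3.5, E4.5 and E5.5 (female and male cells), with the median as a bar. Cldn6 cells at E5.5 lie above most blastocyst cells (means 622 and 452 against 38.7 FPKM at E4.5), and Cldn4 cells lie below most E4.5 cells (means 22.5 and 14.3 against 298).

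The serum and 2i comparison asks which genes separate conventional from ground-state culture. Cldn6, an embryonic claudin, was 3.00 FPKM in the female and 4.498 in the male 2i culture, and 49.8 and 48.2 in serum. The 2 lines lay close together within each state. The log2 change was 3.41 (SE 0.25, limma adjusted p 0.0284), and Cldn6 was the only member called, at an adjusted p under 0.05 and at least 2-fold. Over 15504 genes, 0.0193% were called in either direction, 0.00645% higher and 0.0129% lower, and 9.99% had an unadjusted p under 0.05. With the line as a replicate block the adjusted p was 0.0763, so that call was lost. It was also lost with a pseudocount of 0.1 (adjusted p 0.0687), from means of log values (adjusted p 0.120), with only the first run of title numbers, without either 2i culture, without either serum culture and without the male motor neuron culture. It was called in 12 of 21 alternatives, with the adjusted p running from 0.0192 to 0.166. Esrp1 had a similar change of 3.19 (SE 0.31, adjusted p 0.0601) that did not pass. Cldn7 was 3.498 (female) and 22.01 (male) FPKM in 2i and 68.7 and 64.2 in serum, a change of 2.73 (adjusted p 0.263), and Epcam changed by 1.64 (adjusted p 0.323). Cdh1 (log2 -0.03, SE 0.47), Ocln (-0.05, SE 0.66) and Cldn4 (-0.47, SE 1.34) had no clear direction, and no other member passed. The 8 cultures share one estimate of spread with 4 residual degrees of freedom. A p-value here measures the spread between 1 female and 1 male line, and line and sex cannot be told apart.

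The Epi and serum comparison had 0 of 10 members called (0.0387% of genes called, 0.0322% higher and 0.00645% lower, and 6.45% at an unadjusted p under 0.05, 1 member, Cldn6, p 0.0108). Cdh2 had the largest change, 2.66 (SE 1.11, limma adjusted p 0.727), and the lines disagreed: 0.376 to 1.43 FPKM in the female and 0.277 to 27.8 in the male line. When the 7-passage culture, normalised in its own table, stood for the female line, the change was 4.02 (limma adjusted p 0.0148). That fit called 848 of 15447 genes, against 6 of 15504 in the main fit. With the female Epi culture left out, the change was 4.44 and rested on 1 Epi culture. Both alternatives drop the Epi culture in which Cdh2 was low (1.43 FPKM). Epcam, Cldn3, Ocln and Vim moved in opposite directions in the 2 lines, and Epcam, Cldn3 and Ocln had log2 changes of -1.49, -2.19 and -1.49 in the male line. Zfp42, a naive marker, averaged 72.5 FPKM in female Epi cells and 0.0687 in male ones, and the naive list summed to 208 and 12.1 FPKM. The primed list summed to 165 in female, 536 in male and 444 in 7-passage Epi cells. The part of these markers in the Epi values was not tested.

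Set against each other without a test, since each is 1 culture, male Epi cells had 1 member at least 2-fold higher than female Epi cells, Cdh2 (log2 ratio 3.57), beside 10.7% of 14356 genes. They had 4 lower, Cldn3 (-2.60), Cldn4 (-1.70), Ocln (-1.63) and Epcam (-1.48), beside 15.7%. Vim was higher in male Epi cells by just under 2-fold (log2 ratio 0.97), and past 2-fold with cells rescaled to the same sum (1.18). The 7-passage female culture, normalised in its own table, had 5 members at least 2-fold higher than the other female Epi culture, beside 13.4% of 14280 genes. These were Cdh2 (2.73), Vim (2.71), Cldn6 (1.94), Cldn7 (1.45) and Cdh1 (1.23). Cldn3 was lower (-1.22), beside 12.9% of genes. Both cadherins were thus higher at 7 passages, whereas in male Epi cells Cdh2 was higher and Cdh1 was 14.1 against 23.4 FPKM. The trophectoderm list summed to 1287 FPKM at 7 passages (5 of 7 markers at 1 FPKM or more) and 62.5 in the other female culture (4 of 7). Its part in these values was not tested.

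The motor neuron and serum comparison asks what differentiation changed. Vim rose by 3.35 (SE 0.51, limma adjusted p 0.00559), from 114.3 and 78.6 FPKM in serum to 1527 and 620. Cdh2 rose by 3.68 (SE 1.11, adjusted p 0.0436), and both motor neuron cultures lay above both serum cultures. Cldn6 rose by 1.47 (SE 0.25, adjusted p 0.00756), from 49.8 and 48.2 to 130.4 and 145.5. In the cell clusters described below, Cldn6 averaged 272 FPKM in endoderm-like, 77.3 in unnamed and 21.5 in neuron-like cells, the last under both serum means. Esrp1 fell by 2.39 (SE 0.31, adjusted p 0.00385), Epcam fell by 1.91 (SE 0.50, adjusted p 0.0289) and Cdh1 fell by 1.57 (SE 0.47, adjusted p 0.0435). So 3 members rose, beside 30.1% of all genes, and 3 fell, beside 2.7%, and 6 of 10 were called in either direction, beside 32.8%. With 1 culture left out, its state held 1 sample, and Cdh1, Cdh2, Epcam and Cldn6 did not keep their calls in every such fit. The number of all genes called moved as well. Over 21 alternatives the log2 change ran from -2.89 to -0.91 for Cdh1 and from 2.14 to 5.23 for Cdh2. It ran from -3.83 to -1.58 for Epcam and from 0.33 to 1.61 for Cldn6. Without the filter on low values, 3960 of 33861 genes were called, but Cdh1, Cdh2 and Epcam were not (limma adjusted p 0.098, 0.115 and 0.0762).

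The median of all genes was 0.71 higher in the motor neuron cultures. With cells rescaled to the same sum it was 0.14, and with upper-quartile scaling -0.22. The split of all calls was 4669 higher and 419 lower, against 2166 and 971 after rescaling and 1614 and 1848 after upper-quartile scaling. Cdh2 was then no longer called (adjusted p 0.104 and 0.0871). Cldn6 had a log2 change of 0.99 (adjusted p 0.0357), under the 2-fold limit, and of 0.33 (adjusted p 0.379). Vim and Esrp1 were called under each of 21 alternatives tried, Cdh1 and Cdh2 under 10 each and Epcam and Cldn6 under 15 each. Cldn4 was 73.7 FPKM in the female and 2.66 in the male culture against 52.8 and 45.2 in serum, and the fit did not call it (adjusted p 0.379). The neuron list summed to 3527 (female) and 8391 FPKM (male) in these cultures, and the mesenchyme list to 102.6 and 31.7, against 6.16 and 4.61 in serum. The endoderm list summed to 302 and 1151, against 3.69 and 3.69. The part of these markers in the members' changes was not tested. Compared without a test, the male culture was at least 2-fold higher than the female one for Cdh2 (log2 ratio 1.42), beside 17.5% of genes, and lower for Cldn4 (-4.35), Cdh1 (-1.32) and Vim (-1.30), beside 13.6%. Over all 4 states, the F test called Cldn6, Esrp1 and Vim, 3 of 10, beside 29.5% of genes.

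**Figure D3:**
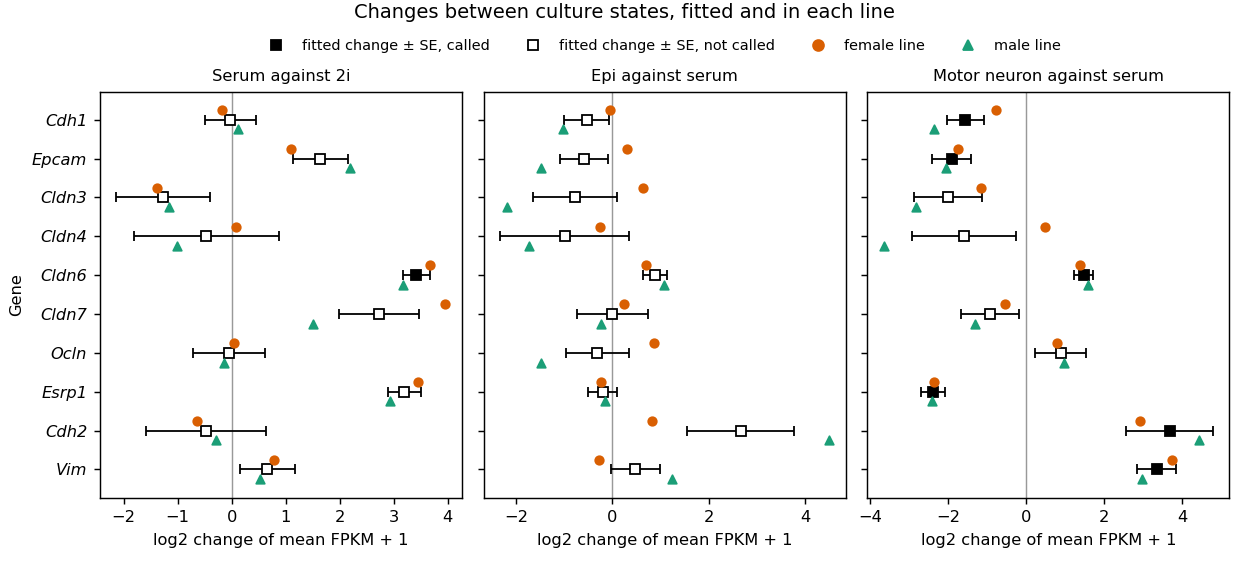
log2 change of mean FPKM + 1 of each gene in 3 comparisons, with a panel for serum and 2i, one for Epi and serum, and one for the motor neuron and serum cultures. Squares with bars are the fitted change with its SE, filled where called, and circles and triangles are the female and male lines. Cldn6 lies at 3.41 in the first panel with both lines near it, and in the middle panel Cdh2 lies at 0.82 in the female and 4.496 in the male line.

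From 6 wider lists (adherens junction, tight junction, desmosome, epithelial regulators and proteases, transcription factors of the epithelial to mesenchymal transition, and mesenchymal or neural adhesion genes), no tested gene was called in serum against 2i or in Epi against serum. In motor neuron against serum, 30.1% of all genes rose and 2.7% fell on the main scale, the only one on which the lists were counted. Of the tested genes, 6 of 13 adherens junction, 3 of 15 tight junction and 1 of 5 desmosome genes rose. So did 2 of 5 transition factor and 3 of 7 mesenchymal or neural genes. None of these lists had a called fall, which is uncommon over all genes as well. Of 10 epithelial regulators 1 rose and 3 fell. The rising tight junction genes were Tjp1, Pard3 and Pard6b, the transition factors Zeb1 and Zeb2, the desmosome gene Dsc2 and the epithelial regulator Ovol2. The 3 largest rises were L1cam (5.17, limma adjusted p 0.00573), a neural adhesion molecule, Ncam1 (5.07, adjusted p 0.00347), another, and Ctnna2 (4.56, adjusted p 0.00233), the neural alpha-catenin. Acta2, of the mesenchymal or neural list, came next with nearly the same rise as Ctnna2 (4.56, limma adjusted p 0.00963). The falls were Rab25 (-3.76, adjusted p 0.0035), a GTPase of epithelial vesicle traffic, Grhl2 (-2.10, adjusted p 0.0383) and Grhl3 (-1.50, adjusted p 0.0168), both Grainyhead-like factors of epithelia. The lists' medians were 1.32 for adherens junction, 1.07 for tight junction and 2.56 for mesenchymal or neural genes, against 0.71 over all genes.

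The balance of the 2 cadherins, log2 of (mean Cdh1 + 1) over (mean Cdh2 + 1), was positive in 11 of 13 groups. It was 4.68 at E3.5, 4.71 at E4.5, 4.41 and 4.06 at E5.5, 3.72 and 4.18 in 2i, and 4.19 and 4.58 in serum. In Epi it was 3.32 (female), -0.94 (male) and 1.82 (7 passages), and in the motor neuron cultures 0.51 (female) and -2.22 (male). The embryo and ES groups lay at 3.72 or above, and the groups under 2 were male Epi, 7-passage Epi and both motor neuron cultures. The likeness of the embryo stages depended on the added 1, since Cdh2 was near 0 in the blastocyst. With a pseudocount of 0.1 the balance was 7.35 at E3.5, 7.60 at E4.5, and 4.90 (female) and 4.45 (male) at E5.5. The median over cells of the ratio per cell was 0 in the female motor neuron culture, 3.03 at 7 passages and -3.34 in male Epi.

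Male Epi cells were divided into 30 with Cdh2 alone at 1 FPKM or more (47.6%, interval 34.9 to 60.6), 29 with both cadherins (46%) and 4 with Cdh1 alone (6.35%). The 7-passage culture had 3 with Cdh2 alone (7.32%), 29 with both (70.7%) and 9 with Cdh1 alone (21.95%). The female Epi culture had 61 of 79 cells with Cdh1 alone (77.2%) and 15 with both. No Epi cell lacked both. Most Cdh2-positive cells at 7 passages thus also held Cdh1. E5.5 cells had both cadherins in 55% (female) and 60.3% (male) and Cdh1 alone in the rest.

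Correlations over the cells of a culture are given as descriptions. In male Epi, Cdh1 had a Spearman rho of 0.74 with Esrp1, 0.70 with Cldn7 and 0.62 with Epcam, and of -0.12 with Cdh2, -0.45 with Vim and -0.57 with Snai1, a repressor of Cdh1. In the 7-passage culture it was 0.78 with Cldn6 and -0.33 with Cdh2. Its rho with the number of genes detected was 0.24 in male Epi and -0.10 at 7 passages. Over the 28 pairs of the 8 epithelial members, the median rho ran from 0.03 in female 2i to 0.54 in male Epi, the lowest and highest of 13 groups. It was 0.47 in the 7-passage and 0.46 in the female Epi culture, and all 28 pairs were positive in each of the 3 Epi cultures. At E4.5 (median 0.39), in female serum (0.38) and in the female motor neuron culture (0.36), 27 pairs were positive. Snai1 averaged 185 FPKM in male Epi, 56.2 at 7 passages, 37.7 and 20.4 at E5.5 (male, then female), and 1.59 and 1.75 in serum (female, then male).

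**Figure D4:**
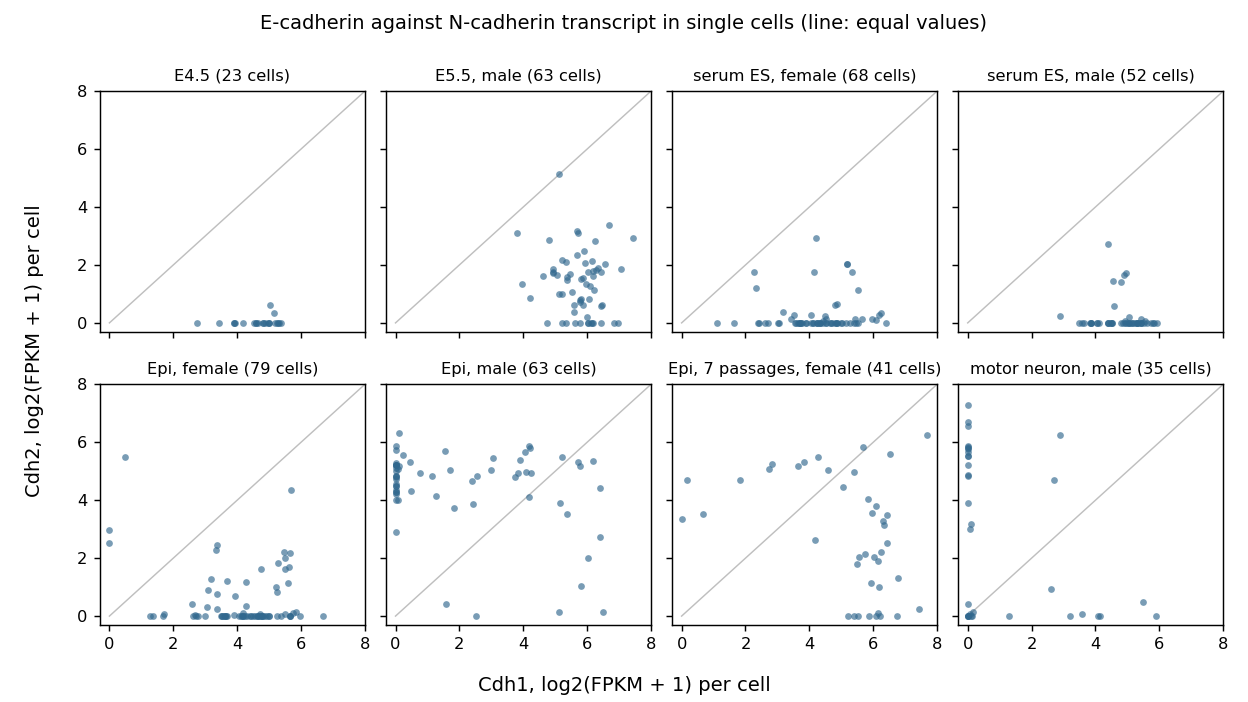
Cdh1 (horizontal) against Cdh2 (vertical), log2(FPKM + 1), 1 point per cell, in 8 of the 13 groups, with a line of equal values. Serum cells lie along the horizontal axis, male Epi cells mostly in the upper left (49 of 63 with Cdh2 above Cdh1) and male motor neuron cells near either axis.

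The 74 cells of the motor neuron cultures were clustered without the members and the adhesion lists, and 3 clusters were kept. The first, 30 cells (13 female, 17 male), had 9 of 10 endoderm markers at 1 FPKM or more and a marker sum of 1603 FPKM against 120 and 51.4 in the others, and is called endoderm-like. Its neuron list summed to 255.9, and Gkn1, Gkn2 and Cyp26a1 were among its leading genes. The second, 25 cells (7 female, 18 male), had a neuron marker sum of 16241 FPKM against 255.9 and 923 in the others, and is called neuron-like. All 10 neuron markers averaged 1 FPKM or more in each of the 3 clusters, so the sum and not the number of markers separated them. The third, 19 cells, all female, had Dcn, Pou5f1, Pla2g1b and Col1a1 as its leading genes and is left unnamed. Clusters were made from these cells, so their differences are descriptions.

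In the female and male cultures together, neuron-like cells averaged 45.7 FPKM of Cdh2, in 96.0% of cells, and 0.843 of Cdh1, in 12.0%. Endoderm-like cells averaged 0.308 of Cdh2, in 3.33%, and 16.3 of Cdh1, in 63.3%. Epcam was 86.1 in endoderm-like and 8.04 in neuron-like cells, Cldn6 272 and 21.5, Ocln 18.6 and 2.07, and Vim 388 and 839. Esrp1 was listed at 0 in all 25 neuron-like cells. The unnamed cells had Vim at 2560 and Cldn4 at 148, and held most of the Cldn4 of the female culture. By culture, Cdh2 was 30.7 (female) and 51.5 (male) in neuron-like cells and 0.0253 and 0.524 in endoderm-like cells, and Epcam was 1.28 and 10.7 in the former and 87.1 and 85.3 in the latter, so for these genes the gap between clusters was larger than that between lines. Of the 10 members, 2 were at least 2-fold higher and 6 at least 2-fold lower in the neuron-like than in the endoderm-like cells, beside 33.8% and 16.7% of 15329 genes. With 2 clusters, where the unnamed cells joined the endoderm-like ones, Vim was 1230 FPKM there against 839 in neuron-like cells, so its log2 difference turned from 1.11 to -0.55. That of Cldn4 went from 0.66 to -3.67 and that of Cldn7 from -1.25 to -0.97. The share of neuron-like cells was 7 of 39 female and 18 of 35 male cells. In a culture mean, fewer cells of a type and less RNA per cell cannot be told apart.

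**Figure D5:**
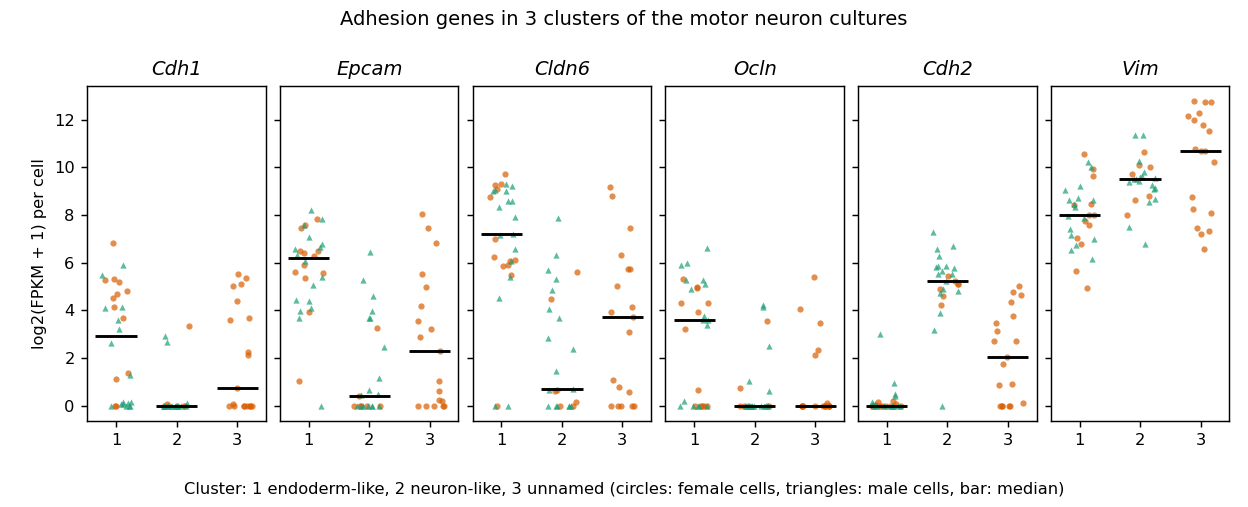
Transcripts per cell, log2(FPKM + 1), of 6 genes in 3 clusters of the motor neuron cultures, with the median as a bar. Cdh2 is high in the neuron-like cluster (mean 45.7 FPKM) and near 0 in the endoderm-like cluster (0.308), where Epcam (86.1) and Cldn6 (272) are high.

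Over the 8 cultures, the genes outside all lists whose levels were most like Cdh1, by Pearson r of log2(mean FPKM + 1) among 9832 genes averaging 5 FPKM or more, were Wdr75 (0.997), Mir291b (0.990) and Mir295 (0.985). Those most like Cdh2 were 2810001G20Rik (0.985), Map3k11 (0.983) and Zmynd11 (0.983). The points share 2 lines and 1 table, and the values describe likeness only.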

How the data were processed

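Libraries of single cells were made by SMART-seq2 and Tn5, per the labels' protocols. FPKM values were deposited by the authors in 4 tables, each normalised on its own. STAR 2.4.1, Cufflinks, Cuffnorm 2.2.1 and the mm10 build are named in the submitters' processing notes, with no order or settings given. Filters on cells and strandedness are not given in the sources used here. Among blastocyst cells, 356 values had an exponent written with a low line and were read as negative powers (largest 9.7552e-05 FPKM). Members and lists were chosen with earlier results of these data known.

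Cells were grouped by labelled type, sex and table. A culture's mean FPKM over cells was the unit of replication. limma 3.58.1 (R 4.3.3, trend = TRUE) fitted log2(mean FPKM + 1) of 8 cultures, for the 15504 genes that reached 1 FPKM on average over these cultures. Calls needed a Benjamini-Hochberg adjusted p under 0.05 over all genes and a log2 change of at least 1. Fold changes on this scale understate the change of low genes. The same 2 lines were used in every state, so lines pair across states by the labels; male minus female deviations correlated between states with r of 0.061 to 0.163. The fit was tested on simulated data. Shares used 1 FPKM and exact Clopper-Pearson intervals. Ward clustering used 1000 variable genes, and no doublet caller was run. All 10 members were named in every comparison; of the wider lists, up to 3 called rises and 3 called falls, by size, were named in a contrast, and for Cdh1 and Cdh2 the 3 most alike genes; Snai1, Zfp42, Krt18, cluster-leading genes and the other called genes of small lists were named after their values were seen. Of 43628 gene IDs, 42462 matched a symbol. Promoter sequences are RefSeq's.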

Additional observations from a re-analysis of the deposited data

Results flagged for a closer look

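In 9 cases the male and the female line moved in opposite directions between the same states, which was not tested, since each line gave 1 culture per state. Each value is a log2 change of mean FPKM + 1, male line first. From serum to Epi these were Cldn3 (-2.19 and 0.63), Epcam (-1.49 and 0.31), Ocln (-1.49 and 0.87), Cldn7 (-0.24 and 0.24) and Vim (1.23 and -0.27). From 2i to serum they were Cldn4 (-1.01 and 0.08), Ocln (-0.14 and 0.04) and Cdh1 (0.11 and -0.17). From serum to the motor neuron culture it was Cldn4 (-3.66 and 0.47).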

How the results depend on the processing

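The number of the 10 members called in serum against 2i was 1, and 0 with a pseudocount of 0.1 or the first run of title numbers only, 2 without a filter on low values, with only the 4 cultures compared or with the 7-passage Epi culture, and 0 to 2 when each culture was left out in turn. In Epi against serum it was 0, 1 with the 7-passage culture and 0 to 1 leaving out cultures. In motor neuron against serum it was 6, 3 without the filter and 2 to 6 leaving out cultures. The F test called 3, 6 from means of log values, 6 with the 7-passage culture and 3 to 6 leaving out cultures. Where a left-out culture leaves a state with 1 sample, that sample is assumed to vary like the other states. The cause was not tested in any of these cases. Of 30 embryo ratios 17 were past 2-fold, and 11 after rescaling. Called genes numbered 3, 6, 5088 and 4576 in the 3 contrasts and the F test, and over the alternatives 0 to 409, 0 to 848, 1669 to 5688 and 1553 to 6454.

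With the line as a replicate block, the pairing of the same 2 lines across states, 0 members were called in serum against 2i. The block changed no other member's call.

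Directions turned only for uncalled changes, with the cause not tested. In Epi against serum, Cdh1 was 0.078 with the 7-passage culture, Cldn6 -0.31 and Cldn7 -0.93 from log means, Cldn7 -0.24 in the second run, and Cldn3 0.22 and Vim -0.26 in the first run. Leaving out each culture there gave Cldn3 -2.08 to 0.52, Cldn7 -0.28 to 0.29, Epcam -1.33 to 0.15, Ocln -1.12 to 0.50 and Vim -0.0054 to 0.96. In serum against 2i, Cdh1 was 0.043 and Ocln 0.017 after rescaling, Cdh1 0.0053 with upper-quartile scaling, Cdh1 0.028 and Ocln 0.047 in the first run, and Vim -0.18 from log means. Leaving out each culture there gave Cdh1 -0.17 to 0.11 and Ocln -0.50 to 0.40. In motor neuron against serum, Ocln was -0.11 with upper-quartile scaling, and Cldn4 ran from -3.77 to 0.58 leaving out cultures. Depth per cell was unknown, which limits shares near 1 FPKM.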
